A study of Mus musculus with 9 samples.

Results

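Regulators of G protein signalling (RGS proteins) are described here through 7 of their genes, Rgs1, Rgs2, Rgs3, Rgs10, Rgs14, Rgs16 and Rgs19, in mouse spleen regulatory T cells (Tregs), the Foxp3-expressing T cells that restrain immune responses. The genes were taken by symbol from the 23393 gene rows of the count tables, and all 7 were among the 12219 genes that passed the filter on low counts. The series concerns Tregs that carry ST2, the interleukin-33 receptor encoded by Il1rl1, in kidney inflammation and scarring after ischemic injury. RNA was sequenced in 9 libraries from 3 groups of 3: Tregs of the genotype ST2KO, wild-type Tregs high in ST2 (ST2-high) and wild-type Tregs low in ST2 (ST2-low). All 9 are labelled spleen and Tregs. The labels give no strain, age, allele, sort gate or treatment, and do not say whether the mice had been injured or whether replicates came from separate animals, so p-values rest on the spread between these libraries, which may be technical.

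An RGS protein binds the GTP-bound alpha subunit of a heterotrimeric G protein and speeds the hydrolysis of its GTP, which ends the signal that a G protein-coupled receptor started. In lymphocytes the best known receptors of this kind are those for chemokines and sphingosine 1-phosphate, which guide migration, and those for adenosine and prostaglandins, which act through cAMP. Rgs1, Rgs2, Rgs3 and Rgs16 belong to the subfamily named R4, Rgs10 and Rgs14 to the subfamily named after RGS12, and Rgs19 to the one named after the G protein Gz.

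Total counts per library lay between 11659659 and 43406680. Levels are given as CPM, which are read counts relative to the library total, scaled with TMM factors. Foxp3, the transcription factor that defines Tregs, stood at 430.2 ± 17.6 CPM in ST2KO, 567.7 ± 47.8 CPM in ST2-high and 461.6 ± 16.3 CPM in ST2-low (SD, n = 3 each). Il1rl1 stood at 67.57 ± 14 CPM in the libraries labelled ST2KO, 494.7 ± 66 CPM in ST2-high and 2.62 ± 0.84 CPM in ST2-low (SD, n = 3 each). Counts per gene do not show which part of a transcript was read, so the knockout label could not be checked from them, and ST2KO means the libraries labelled ST2KO throughout. ST2-high replicate 3 differed most from its group by chi-square, with 16.5 and 19.9 per gene against its partners. Every other pair within a group had between 4.46 and 8.22. The chi-square used counts scaled by library total, with the ribosomal RNA row Rn45s kept in. Rn45s held 16.69% of ST2-high replicate 3, against 12.98% and 12.11% of replicates 1 and 2. Its part in the chi-square was not tested.

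Of the 7 genes, 5 were found in the RefSeq promoter table of GRCm38.p6 (Rgs2, Rgs3, Rgs10, Rgs16 and Rgs19). The bases before the annotated start of Rgs2 and Rgs16, which were lower in ST2KO, and of Rgs19, which was higher there, are shown because these genes moved together or apart between the groups. They run 5′ to 3′ on the gene's strand and end before the outermost annotated start. Capitals mark each TGACG, the half-site of the cAMP response element, on either strand.
Rgs2, chr1:144004162-144004399, minus strand: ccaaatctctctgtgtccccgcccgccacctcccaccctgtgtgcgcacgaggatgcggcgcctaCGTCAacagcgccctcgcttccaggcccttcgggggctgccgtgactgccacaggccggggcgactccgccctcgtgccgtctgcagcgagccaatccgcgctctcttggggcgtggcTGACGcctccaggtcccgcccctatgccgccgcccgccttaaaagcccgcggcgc
Rgs16, chr1:153740103-153740348, plus strand: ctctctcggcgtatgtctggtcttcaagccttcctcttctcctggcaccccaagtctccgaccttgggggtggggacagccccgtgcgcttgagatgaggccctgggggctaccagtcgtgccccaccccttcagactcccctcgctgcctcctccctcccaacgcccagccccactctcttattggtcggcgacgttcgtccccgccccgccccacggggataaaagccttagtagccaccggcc
Rgs19, chr2:181693978-181694227, minus strand: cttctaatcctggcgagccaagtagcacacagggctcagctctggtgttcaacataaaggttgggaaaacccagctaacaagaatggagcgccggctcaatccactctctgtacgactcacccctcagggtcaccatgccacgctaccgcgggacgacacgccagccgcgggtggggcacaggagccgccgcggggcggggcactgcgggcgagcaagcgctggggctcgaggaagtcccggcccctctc
The Rgs2 window held 2 such half-sites, which begin 185 and 67 bases before the RefSeq start, and the windows of Rgs3, Rgs10, Rgs16 and Rgs19 held none of these letters. On either strand, TGACG was found in 17.8% of all 32851 promoter windows of 250 bases. The GC box GGGCGG occurred 4 times before Rgs2, 2 times before Rgs16 (sharing 1 base) and 1 time before the outermost start of Rgs19, and was found in 32.7% of all windows. CCAAT occurred 1 time before Rgs2 and 1 time before Rgs16, and was found in 33.8% of all windows. None of the half-sites before Rgs2 overlapped another of these matches. The AP-1 site TGANTCA (6.75% of all windows) and the NF-kappa B motif (1.21%) were in none of the members' windows. A match of letters is a description and does not show a bound site.

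The coordinates are those of GENCODE M21 (GRCm38). Rgs2 (chr1:143999338-144004161) and Rgs1 (chr1:144242296-144249242) are protein-coding genes on the minus strand, 238.1 kb apart, with Rgs13 between them and Rgs21 and Rgs18 beyond Rgs1. Rgs16 (chr1:153740349-153745468, plus strand) lies elsewhere on the chromosome, 40.0 kb from Rgs8. Rgs3 lies at chr4:62559847-62704001, Rgs10 at chr7:128373621-128418758, Rgs14 at chr13:55369732-55384687 and Rgs19 at chr2:181688419-181693977. The annotation puts an antisense transcript inside Rgs3 and another across Rgs16, and a transcript on the same strand inside Rgs10. The strand setting of the counting is not given, so reads of these transcripts cannot be told apart from those of the 3 genes, whose values are uncertain to that extent.

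The 7 genes split by direction in ST2KO. Rgs2, Rgs16, Rgs10 and Rgs1 were lower than in both wild-type groups and Rgs3, Rgs14 and Rgs19 were higher than in both. For each of the 7 no ST2KO library overlapped a wild-type one. How many of all tested genes lacked such overlap was not counted, so the lack of overlap only describes each gene. Between ST2-high and ST2-low, Rgs2 was higher and Rgs10 lower. The other 5 did not pass the test. A gene passed where its p from the quasi-likelihood test of edgeR, adjusted by Benjamini-Hochberg over all 12219 genes, was under 0.05. The comparisons share libraries in pairs, so their values are given side by side. In ST2KO against ST2-low all 7 passed, 3 higher and 4 lower, where 62.3% of all tested genes passed, 33% higher and 29.3% lower. The same 3 and 4 passed in ST2KO against ST2-high, where 64.5% of all genes passed, 31.9% higher and 32.6% lower. In ST2-high against ST2-low 2 of 7 passed, against 26.1% of all genes (15.3% higher and 10.8% lower). Since most tested genes passed in both ST2KO comparisons, the count alone is no result about these genes. The median log2 fold change of the 7 was -0.60 in ST2KO against ST2-low (0.05 over all tested genes), -0.42 in ST2KO against ST2-high (0.02) and 0.17 in ST2-high against ST2-low (-0.0024). With 4 genes lower and 3 higher, the ST2KO medians are the values of Rgs1 and Rgs10 and describe no shift of all 7. By size, Rgs2 and Rgs16 were among the 6.64% of all genes that passed as lower by 2-fold or more in ST2KO against ST2-low, and Rgs3 and Rgs14 were among the 6.86% that passed as higher by 2-fold or more. Against ST2-high the same pairs of genes were among the 8.86% lower and the 6.83% higher by that size.

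**Figure D1:**
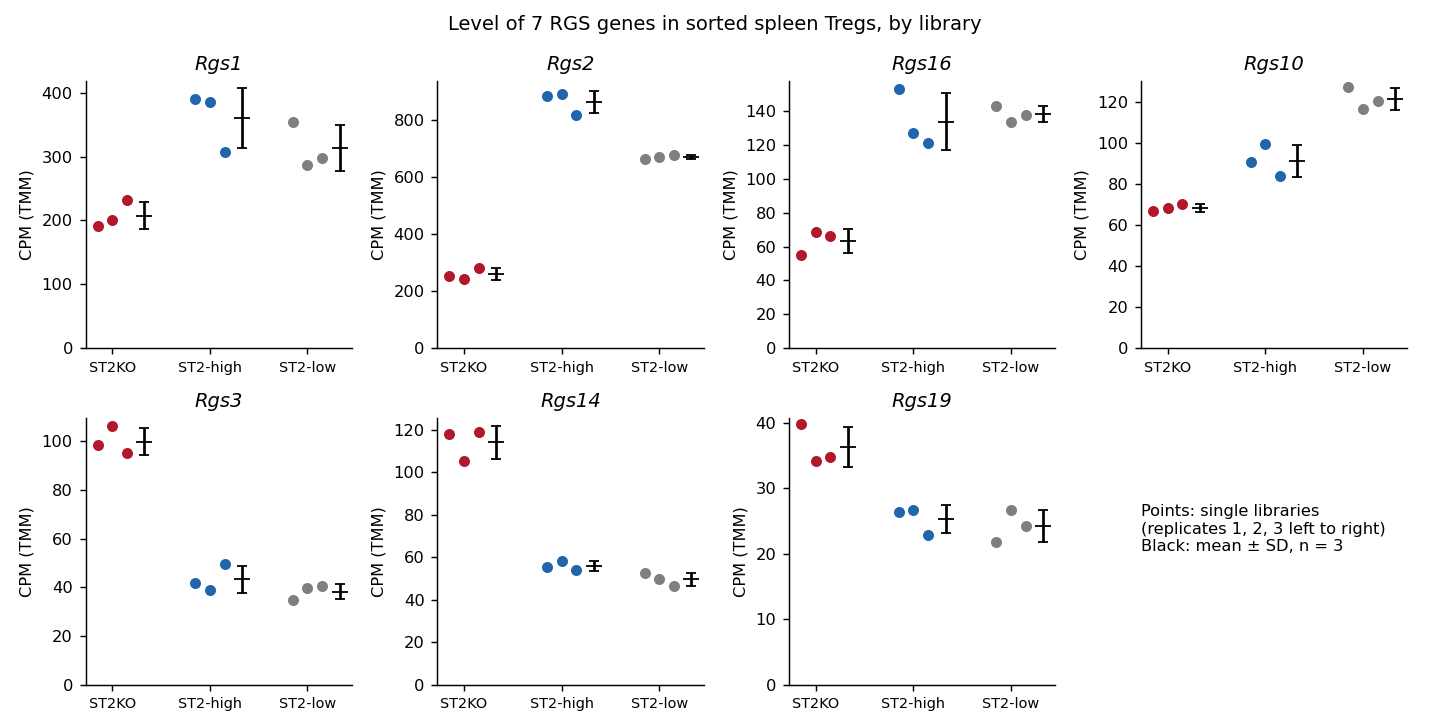
Level of each of the 7 genes in CPM with TMM factors (y axis, from 0), by group (x axis); coloured points are single libraries, black marks the mean ± SD of 3. In ST2KO, Rgs1, Rgs2, Rgs16 and Rgs10 lie below every wild-type library and Rgs3, Rgs14 and Rgs19 above every one; for Rgs2 the ST2KO libraries sit between 243.2 and 282.2 CPM.

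Rgs2, whose protein acts mainly on Gq and also lowers cAMP production, had the largest counts of the 7 genes. Its ST2KO libraries held 253, 243.2 and 282.2 CPM. The ST2-high libraries held 884, 890.2 and 819.5 CPM, and the ST2-low libraries 664, 671.8 and 678.4 CPM. The 3 groups did not overlap, and their order was ST2-high above ST2-low above ST2KO. Against ST2-high, Rgs2 was 3.34-fold lower in ST2KO (log2 fold change -1.74 ± 0.06 SE; edgeR adjusted p = 1.02e-21). Against ST2-low it was 2.59-fold lower in ST2KO (-1.37 ± 0.06; edgeR adjusted p = 3.49e-19). Between the wild-type groups it was 1.29-fold higher in ST2-high (0.37 ± 0.05; edgeR adjusted p = 4.45e-06).

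Rgs1, which in B and T cells restrains chemokine-driven migration, differed more between libraries of a group. It stood at 190.6, 200.2 and 231.5 CPM in ST2KO. In ST2-high it stood at 390, 384.9 and 306.6 CPM, and in ST2-low at 353.7, 286.8 and 298.1 CPM. The ST2KO libraries were the lowest 3 of the 9, while ST2-high and ST2-low overlapped. Rgs1 was 1.75-fold lower in ST2KO than in ST2-high (log2 fold change -0.80 ± 0.12 SE; edgeR adjusted p = 0.000391) and 1.51-fold lower than in ST2-low (-0.60 ± 0.12; edgeR adjusted p = 0.00246). ST2-high and ST2-low did not pass (0.21 ± 0.12, 95% interval -0.07 to 0.48; edgeR adjusted p = 0.268). That comparison passed without ST2-low replicate 1, where the log2 fold change was 0.30 (edgeR adjusted p = 0.0473). Without any other single library of these groups it did not pass (edgeR adjusted p between 0.0739 and 0.553).

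Rgs16, a related inhibitor of signalling through Gi and Gq that activated T cells induce, stood at 55.29, 68.74 and 65.96 CPM in ST2KO. The ST2-high libraries held 152.9, 127.1 and 121.4 CPM and the ST2-low libraries 143.1, 133.7 and 137.6 CPM. Every wild-type library was above every ST2KO library, and the wild-type groups overlapped. The gene was 2.14-fold lower in ST2KO than in ST2-high (log2 fold change -1.10 ± 0.09 SE; edgeR adjusted p = 1.4e-08) and 2.20-fold lower than in ST2-low (-1.14 ± 0.09; edgeR adjusted p = 9.75e-09). Between ST2-high and ST2-low its 95% interval ran from -0.22 to 0.14 on the log2 scale (edgeR adjusted p = 0.785).

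Rgs10, a regulator of Gi that consists of little more than its RGS domain, also separated all 3 groups. Its levels were 66.58, 68.15 and 70.29 CPM in ST2KO. They were 90.74, 99.26 and 83.72 CPM in ST2-high and 127.1, 116.4 and 120.2 CPM in ST2-low. No 2 groups overlapped, and ST2-high lay between the others. Rgs10 was 1.78-fold lower in ST2KO than in ST2-low (log2 fold change -0.83 ± 0.06 SE; edgeR adjusted p = 4.97e-13) and 1.34-fold lower than in ST2-high (-0.42 ± 0.06; edgeR adjusted p = 5.93e-07). In ST2-high it was 1.33-fold lower than in ST2-low (-0.41 ± 0.06; edgeR adjusted p = 3.05e-06).

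Rgs3, which has several isoforms and whose protein also binds G beta gamma, stood at 98.3, 106.1 and 95.25 CPM in ST2KO. The ST2-high libraries held 41.64, 38.84 and 49.51 CPM and the ST2-low libraries 34.69, 39.66 and 40.45 CPM. All 3 ST2KO libraries were above all wild-type ones, and the wild-type groups overlapped. Rgs3 was 2.61-fold higher in ST2KO against ST2-low (log2 fold change 1.38 ± 0.08 SE; edgeR adjusted p = 2.84e-15) and 2.31-fold higher than in ST2-high (1.21 ± 0.08; edgeR adjusted p = 4.01e-14). ST2-high against ST2-low did not pass (0.17 ± 0.08, 95% interval 0.01 to 0.34; edgeR adjusted p = 0.114) but passed when ST2-high replicate 2 was left out (0.24; edgeR adjusted p = 0.0296). Leaving out ST2-high replicate 3, the library with the highest chi-square, lowered the value to 0.075 (edgeR adjusted p = 0.507). Leaving out ST2-low replicate 1 lowered it to 0.11 (edgeR adjusted p = 0.419). The annotation gives Rgs3 5 basic transcripts, which counts per gene do not separate.

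Rgs14, which beside its RGS domain carries Ras-binding domains and a motif that holds Gi in its GDP-bound form, stood at 118.3, 105.2 and 119.1 CPM in ST2KO. It stood at 55.55, 58.38 and 53.99 CPM in ST2-high and at 52.58, 49.87 and 46.53 CPM in ST2-low. The ST2KO libraries were the highest 3, and ST2-high lay just above ST2-low without overlap. Rgs14 was 2.30-fold higher in ST2KO against ST2-low (log2 fold change 1.20 ± 0.06 SE; edgeR adjusted p = 2.91e-16) and 2.04-fold higher than in ST2-high (1.03 ± 0.06; edgeR adjusted p = 8.4e-15). Between ST2-high and ST2-low the difference was 0.17 ± 0.07 and just missed the threshold (95% interval 0.04 to 0.31; edgeR adjusted p = 0.0516). It passed when ST2-high replicate 3 was left out (0.20, edgeR adjusted p = 0.03) and likewise for ST2-low replicate 1 (0.22, edgeR adjusted p = 0.0342). Without any other single library of these groups it did not pass (edgeR adjusted p between 0.104 and 0.243). Thinning to the smallest library lowered it to 0.12 (edgeR adjusted p = 0.256).

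Rgs19, a regulator of Gi and Gz signalling also known as GAIP, had the lowest counts of the 7. Its levels were 39.9, 34.25 and 34.86 CPM in ST2KO, 26.36, 26.73 and 22.88 CPM in ST2-high and 21.88, 26.7 and 24.27 CPM in ST2-low. The ST2KO libraries were again the highest 3, and the wild-type groups overlapped. Rgs19 was 1.51-fold higher in ST2KO against ST2-low (log2 fold change 0.59 ± 0.09 SE; edgeR adjusted p = 1.13e-06) and 1.44-fold higher than in ST2-high (0.53 ± 0.09; edgeR adjusted p = 6.13e-06). Its 95% interval between ST2-high and ST2-low was -0.12 to 0.25 on the log2 scale (edgeR adjusted p = 0.661).

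**Figure D2:**
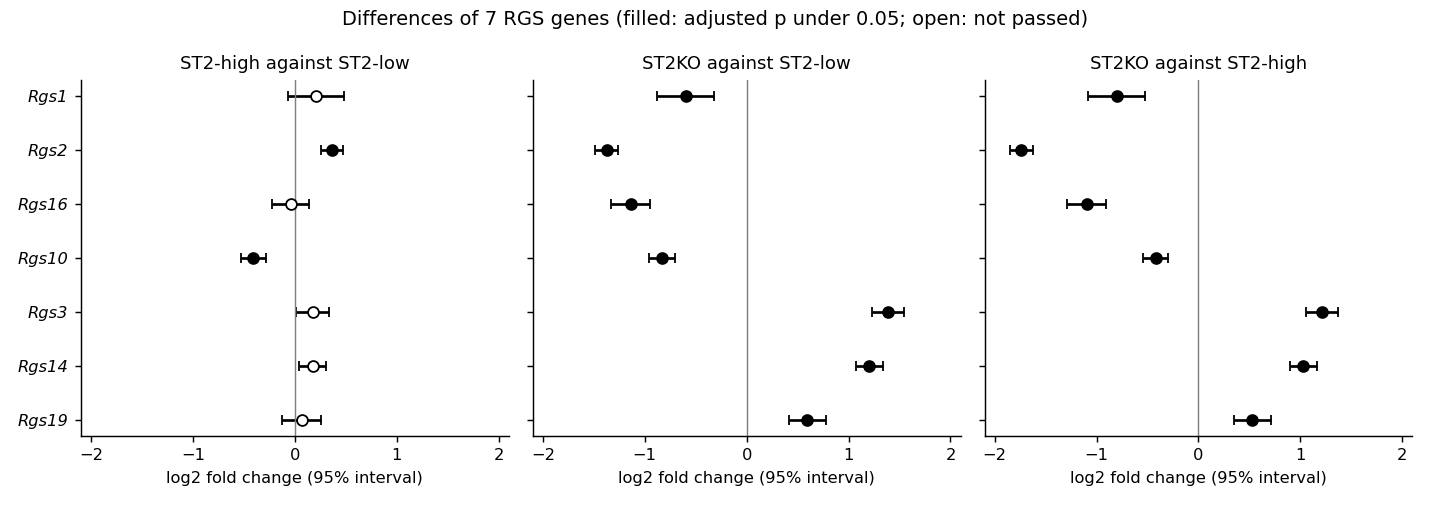
Log2 fold change (x axis, with its 95% interval) of each gene (y axis) in the 3 comparisons; filled points have adjusted p under 0.05 and open points do not. In both ST2KO comparisons, which share the ST2KO libraries, 4 genes lie left of 0 and 3 right of it; in ST2-high against ST2-low, Rgs2 (0.37) and Rgs10 (-0.41) are filled.

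Per kilobase of annotated exon, the scale on which genes can be set beside each other, Rgs2 led in every group. It stood at 79.74 ± 6.24 CPM per kb in ST2KO, 265.7 ± 12 in ST2-high and 206.3 ± 2.22 in ST2-low (SD, n = 3 each). In ST2KO it was followed by Rgs10 (59.95), Rgs1 (54) and Rgs14 (48.46), of which neighbours overlapped in their ranges, then by Rgs16 (27.08), Rgs19 (17) and Rgs3 (12.75), which did not. In ST2-high the order was Rgs2, Rgs1 (93.84), Rgs10 (80.04), Rgs16 (57.2), Rgs14 (23.76), Rgs19 (11.85) and Rgs3 (5.53), and Rgs1 and Rgs10 were the only neighbours with overlapping ranges. In ST2-low no neighbours overlapped, with Rgs10 (106.3) next after Rgs2, followed by Rgs1 (81.46), Rgs16 (59.06), Rgs14 (21.08), Rgs19 (11.36) and Rgs3 (4.89). Rgs14 stood above Rgs16 in ST2KO and below it in both wild-type groups. Exon lengths are those of the GENCODE annotation and may not be those of the authors. They join the exons of all basic transcripts of a gene, 5 for Rgs3 and 8 for Rgs19. Levels per kb and shares of genes with several transcripts may therefore come out too low.

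Summed over the 7 genes, the level was 299 ± 14.6 CPM per kb in ST2KO, 537.9 ± 35.5 in ST2-high and 490.5 ± 13.7 in ST2-low (SD, n = 3 each), with no overlap between ST2KO and either wild-type group. Rgs2 made up 26.6 ± 0.86% of that sum in ST2KO, 49.4 ± 1.1% in ST2-high and 42.1 ± 1.5% in ST2-low. Rgs14 made up 16.2 ± 0.96% in ST2KO, 4.42 ± 0.2% in ST2-high and 4.3 ± 0.21% in ST2-low. The share of Rgs1 was 18 ± 1% in ST2KO, 17.4 ± 1.2% in ST2-high and 16.6 ± 1.4% in ST2-low, with overlapping ranges. Shares add up to the whole, so a lower share of 1 gene raises those of others.

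**Figure D3:**
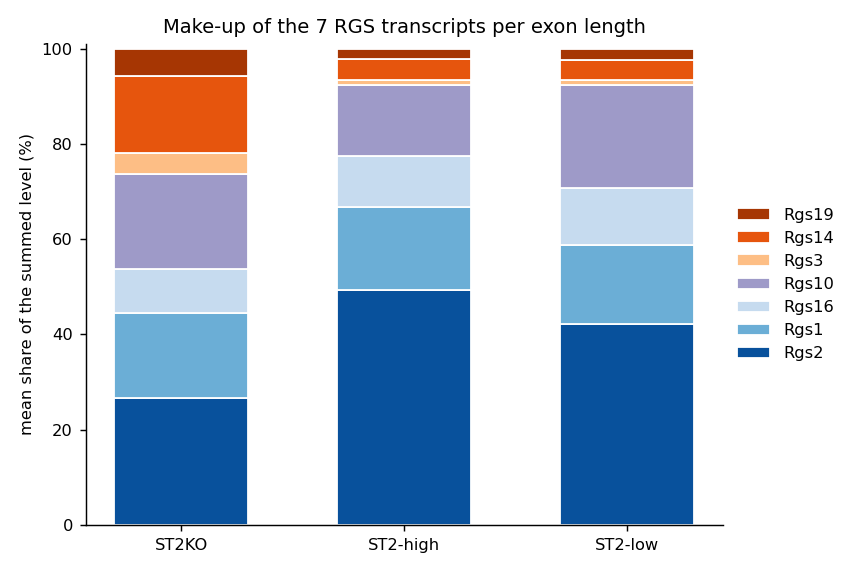
Mean share of each gene in the summed level of the 7 genes per kb of exon (y axis, percent; n = 3 per group) in ST2KO, ST2-high and ST2-low. Rgs2 takes 26.6% in ST2KO against 49.4% in ST2-high and 42.1% in ST2-low, and Rgs14 takes 16.2% in ST2KO against 4.42% and 4.3%.

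Of the 14 other genes of the family found in the files, 4 were tested. Rgs9, whose protein works in a pair with the G beta 5 subunit, stood at 12.98, 18.41 and 18.99 CPM in ST2KO, 30.65, 29.57 and 41.33 CPM in ST2-high and 28.15, 31.61 and 31.01 CPM in ST2-low. It was lower in every ST2KO library, by 1.87-fold against ST2-low (log2 fold change -0.90 ± 0.15 SE; edgeR adjusted p = 0.000155) and 2.07-fold against ST2-high (-1.05 ± 0.15; edgeR adjusted p = 3.3e-05). Rgs11, of the same subfamily, averaged 5.73 ± 1.07 CPM in ST2KO, 4.11 ± 0.79 CPM in ST2-high and 3.72 ± 1.03 CPM in ST2-low (SD, n = 3 each) and passed as higher in ST2KO against both (edgeR adjusted p = 0.0113 against ST2-low and 0.034 against ST2-high). A gene on the opposite strand, Arhgdig, covers part of Rgs11 but had at most 1 count in any library. Rgs12 (5.19, 4.63 and 4.14 CPM in ST2KO, ST2-high and ST2-low) and Rgs18 (1.05, 0.92 and 1.06 CPM) passed in no comparison. Rgs18 is known from platelets and myeloid cells and Rgs13 from germinal centre B cells. Rgs13 held 27 counts in the 9 libraries together. The remaining genes held at most 21 counts each, and Rgs5, Rgs7, Rgs17 and Rgs22 none.

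Genes within 1000 kb of the members' starts did not share one direction. Around Rgs2, 6 other genes were tested in ST2KO against ST2-low, of which 1 was lower (Rgs1), 2 were higher (Glrx2 and Cdc73) and 3 did not pass. Around Rgs16, 7 of 12 were lower and 1 was higher, where 29.3% and 33% of all genes were. The lower genes included Glul (glutamine synthetase) at 92.73 CPM in ST2KO against 190.1 CPM in ST2-low. These neighbours were named after their values were seen.

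The counts of the pathway lists that follow are read against all tested genes. Of these, 33% were higher and 29.3% lower in ST2KO against ST2-low (median log2 fold change 0.05), 31.9% higher and 32.6% lower in ST2KO against ST2-high (0.02), and 15.3% higher and 10.8% lower in ST2-high against ST2-low (-0.0024). Receptors that signal through G proteins changed in both directions. Of 25 tested chemoattractant receptors, 8 were higher and 9 lower in ST2KO than in ST2-low, all 9 by 2-fold or more. Their median log2 fold change was 0.06, against 0.05 over all tested genes. The lymph node homing receptor Ccr7 stood at 180.2 ± 5.51 CPM in ST2KO and 2004 ± 50.7 CPM in ST2-low (SD, n = 3 each; 11.1-fold lower, edgeR adjusted p = 3.18e-28). P2ry10, a receptor for lysophosphatidylserine, stood at 433 ± 12.7 CPM in ST2KO and 1122 ± 54.1 CPM in ST2-low (SD, n = 3 each; 2.59-fold lower, edgeR adjusted p = 5.79e-19). In ST2KO against ST2-high, 15 of the 25 were lower and 3 higher (median -0.93, against 0.02 over all genes), with Ccr8 4.79-fold lower. In ST2-high against ST2-low, 12 were higher and 4 lower (median 0.31, against -0.0024 over all genes), and 5 of the 25 were higher by 2-fold or more, where 3.16% of all tested genes were. Ccr2, Ccr3 and Ccr4 were 3.54-fold, 5.75-fold and 2.26-fold higher in ST2-high.

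Of 10 tested receptors coupled to Gs or Gq, 3 were higher and 4 lower in ST2KO than in ST2-low, 2 higher and 5 lower in ST2KO than in ST2-high, and 5 higher and 1 lower in ST2-high than in ST2-low. In ST2-high against ST2-low 6 of the 10 were called, where 26.1% of all genes were. With 62.3% and 64.5% of all genes called in the ST2KO comparisons, 7 of 10 called in each is close to the whole table. Their medians were 0.02, -0.18 and 0.19 in the same order of comparisons, against 0.05, 0.02 and -0.0024 over all genes. The adenosine receptor gene Adora2a stood at 56.37 ± 5.15 CPM in ST2KO, 250 ± 20.5 CPM in ST2-high and 199.1 ± 13.2 CPM in ST2-low (SD, n = 3 each). Like Rgs2, it was lowest in ST2KO and highest in ST2-high, and it passed in each comparison. The prostaglandin E receptor gene Ptger4 was 1.31-fold higher in ST2-high against ST2-low and 1.14-fold higher in ST2KO against ST2-low.

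RGS proteins act on alpha subunits, each on certain classes only. The list of alpha subunits takes in several classes, Gs among them, and was not limited to those that the 7 members act on. Of 11 tested, 6 were lower and 2 higher in ST2KO against ST2-low (median -0.13), 6 lower and 1 higher in ST2KO than in ST2-high (median -0.37), while in ST2-high against ST2-low 4 were higher and 7 did not pass (median 0.06). The 8 and 7 of 11 called in the ST2KO comparisons stand near the 62.3% and 64.5% of all genes, whose medians were 0.05 and 0.02. Gna13, whose G protein acts on exchange factors that carry an RGS domain, had the smallest adjusted p of them in both ST2KO comparisons, at 443.5 ± 21.8 CPM in ST2KO, 1301 ± 40.9 CPM in ST2-high and 1152 ± 31.7 CPM in ST2-low (SD, n = 3 each). The Gi subunit Gnai3 was 1.31-fold lower in ST2KO than in ST2-low (edgeR adjusted p = 2.06e-07), and the Gs subunit Gnas 1.30-fold lower (edgeR adjusted p = 9.56e-08). Gna15, a Gq-class subunit of blood cells, was 3.10-fold higher in ST2-high against ST2-low (edgeR adjusted p = 4.97e-14). Of 9 tested beta and gamma subunits, 3 were lower and 1 higher in ST2KO against ST2-low (median -0.28, against 0.05 over all genes), fewer called than the 62.3% of all genes. Gnb5, the partner of Rgs9 and Rgs11, averaged 2.98 ± 0.57 CPM in ST2KO and 4.69 ± 0.68 CPM in ST2-low (SD, n = 3 each; edgeR adjusted p = 0.00414), and against 3.97 ± 0.26 CPM in ST2-high it just missed (edgeR adjusted p = 0.0501). Gng2 was 1.51-fold higher in ST2KO against ST2-low. In ST2KO against ST2-high 4 of the 9 were lower and 2 higher, and in ST2-high against ST2-low 3 were higher and 6 did not pass.

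Other proteins hold or uncouple G proteins. Of 8 tested chaperones, GDP-holding proteins and arrestins, 3 were higher and 1 lower in ST2KO than in ST2-low, 3 higher and 2 lower in ST2KO than in ST2-high, and 1 higher and 1 lower in ST2-high than in ST2-low. The 4 and 5 of 8 called in the ST2KO comparisons are below or near the 62.3% and 64.5% of all genes and are no result about the list, whose medians were 0.21 and 0.0052 against 0.05 and 0.02 over all genes. Arrb2, which encodes beta-arrestin 2, was 1.58-fold higher and Gpsm3 1.35-fold higher in ST2KO against ST2-low. Gpsm2 stood at 9.02 ± 1.07 CPM in ST2-high and 4.55 ± 1.17 CPM in ST2-low (SD, n = 3 each; edgeR adjusted p = 8.89e-05). Of 14 tested genes whose proteins carry a divergent RGS domain, 6 were higher and 3 lower in ST2KO than in ST2-low, 7 higher and 3 lower in ST2KO than in ST2-high, while 4 were higher in ST2-high against ST2-low and 10 did not pass. The 9 and 10 of 14 called in the ST2KO comparisons are close to the 62.3% and 64.5% of all genes, and the medians were 0.14 and 0.15 against 0.05 and 0.02. Axin2, a scaffold of the Wnt pathway, was 2.03-fold higher in ST2KO against ST2-low, and the receptor kinase gene Adrbk2 3.45-fold lower in ST2KO than in ST2-high.

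Among 19 tested effectors that act after G proteins, 9 were higher and 3 lower in ST2KO than in ST2-low (median 0.29), 9 higher and 6 lower in ST2KO than in ST2-high (median 0.21), and 8 higher and 3 lower in ST2-high than in ST2-low (median 0.07). Over all genes the medians were 0.05, 0.02 and -0.0024. The 12 of 19 called in ST2KO against ST2-low match the 62.3% of all genes. In ST2KO against ST2-high 15 of 19 were called, where 64.5% of all genes were. In ST2-high against ST2-low 11 of 19 were called, where 26.1% of all genes were. The adenylyl cyclase gene Adcy7 stood at 330.6 ± 1.68 CPM in ST2KO and 159.5 ± 8.67 CPM in ST2-low (SD, n = 3 each; 2.07-fold higher, edgeR adjusted p = 4.12e-17). Pik3r5, a regulatory subunit of the G beta gamma-driven PI3-kinase, was 1.90-fold higher in ST2KO against ST2-low. Adcy6 was 1.82-fold lower in ST2-high than in ST2-low and 2.24-fold higher in ST2KO than in ST2-high.

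**Figure D4:**
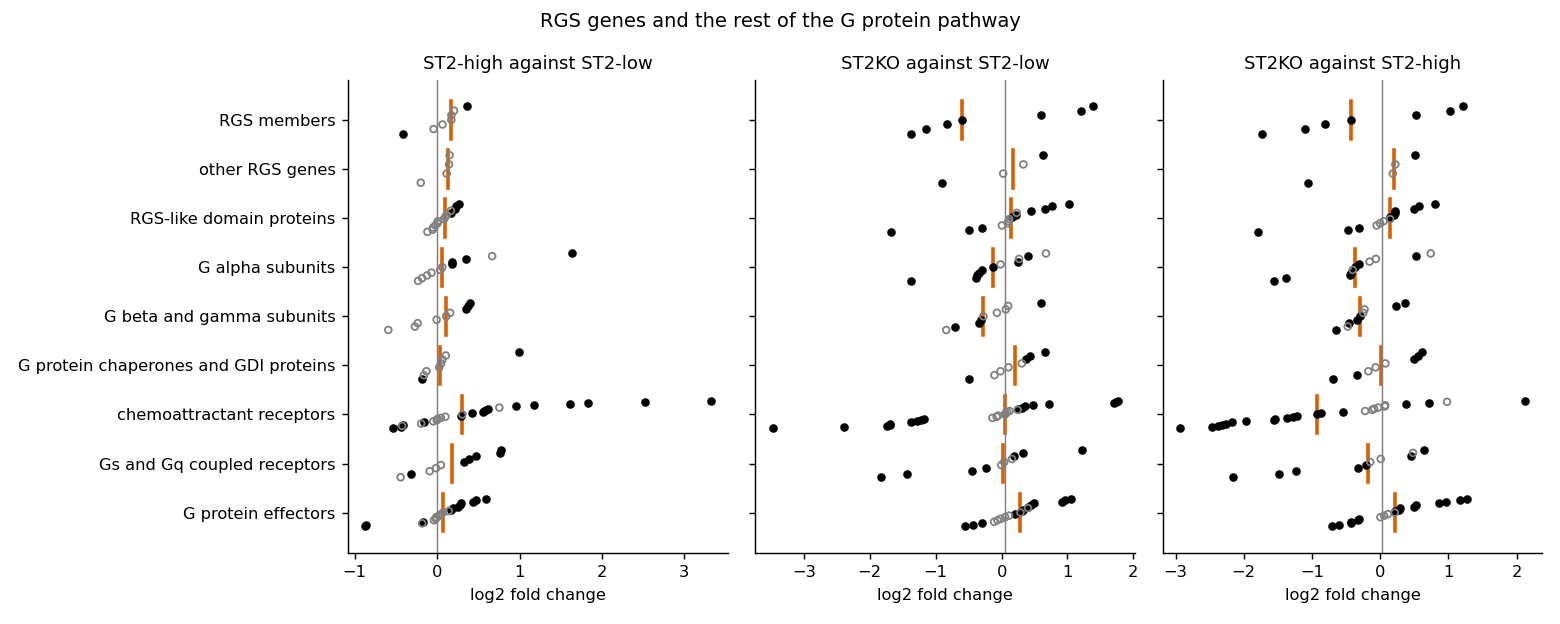
Log2 fold change (x axis) of every tested gene of 9 lists (y axis) in the 3 comparisons; filled points have adjusted p under 0.05, open points do not, orange bars mark each list's median and the grey line the median of all tested genes. The chemoattractant receptors reach furthest, down to -3.47 for Ccr7 in ST2KO against ST2-low, and the RGS genes lie on both sides of the line in the ST2KO comparisons.

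Transcripts of some other spleen cells differed between the groups. Of all tested genes, 29.3% were lower in ST2KO against ST2-low, 32.6% lower in ST2KO against ST2-high and 10.8% lower in ST2-high against ST2-low. In the last of these comparisons 15.3% were higher. Of 17 tested myeloid and dendritic markers 14 were lower in ST2KO than in ST2-low and 3 did not pass, and their summed level lay between 168.9 and 195.8 CPM in ST2KO, 266.5 and 279.8 CPM in ST2-high and 287.5 and 335.8 CPM in ST2-low. Ctss alone held 125.4 CPM of this sum in ST2KO, 115.9 CPM in ST2-high and 120.6 CPM in ST2-low. Of 12 B cell markers 6 were lower in ST2KO against ST2-low and 6 did not pass. Their sums lay between 116.7 and 150.8 CPM in ST2KO, 151.1 and 185.4 CPM in ST2-high and 131.9 and 195.1 CPM in ST2-low. The B cell sums of ST2KO and ST2-low overlapped. Of 7 neutrophil markers 5 were lower and 2 did not pass, with sums between 3.76 and 4.74 CPM in ST2KO, 13.8 and 20.96 CPM in ST2-high and 9.75 and 38.61 CPM in ST2-low. In ST2KO against ST2-high 15, 7 and 3 of these lists' genes were lower. In ST2-high against ST2-low 1 myeloid marker was higher and 6 lower, and 1 B cell marker was higher. Their part in the differences of Rgs1, Rgs2, Rgs10 and Rgs16 was not tested. The macrophage marker Csf1r averaged 5.84 CPM in ST2KO, 20.16 CPM in ST2-high and 27.45 CPM in ST2-low. Csf1r and Ctss were named after their values were seen. Of 7 Treg markers 2 were higher and 2 lower in ST2KO against ST2-low, 1 higher and 4 lower in ST2KO against ST2-high, and 4 higher in ST2-high against ST2-low. Their summed level did not overlap between groups, at 3780 to 3896 CPM in ST2KO, 5462 to 5757 CPM in ST2-high and 4774 to 4900 CPM in ST2-low. Tnfrsf18, which encodes the costimulatory receptor GITR, stood at 99.56 CPM in ST2KO, 213.5 CPM in ST2-high and 147.2 CPM in ST2-low. Ctla4 stood at 786.3 CPM in ST2KO, 2123 CPM in ST2-high and 1996 CPM in ST2-low, a large part of these sums. Il2ra and Ikzf2 went the other way against ST2-low, at 496 and 1237 CPM in ST2KO and 402.2 and 1060 CPM in ST2-low. The part of these markers in the RGS differences was not tested. Of 6 tested plasma cell markers 4 were lower and 1 higher in ST2KO against ST2-low, with Xbp1 at 61.13 CPM in ST2KO against 197.1 CPM in ST2-low as the most changed and Prdm1, which effector Tregs also express, as the higher one. The summed level of the plasma cell markers lay between 256.5 and 279.4 CPM in ST2KO, 542.8 and 588.4 CPM in ST2-high and 401.8 and 460.4 CPM in ST2-low. In ST2-high its largest parts were Irf4 (178.4 CPM), Xbp1 (172.5 CPM), Prdm1 (113.5 CPM) and Igj (94.88 CPM), while Mzb1 held 6.37 CPM. Igj stood at 60.14 CPM in ST2KO and 96.14 CPM in ST2-low. Whether this RNA came from plasma cells or from the Tregs was not tested. Of 8 NK cell markers 1 was lower and 1 higher, of 5 erythroid and platelet markers 1 was lower, and of 3 CD8 T cell markers none passed in ST2KO against ST2-low (edgeR, 0 also at an unadjusted p under 0.05). The NK cell markers Klra4 and Klra8 and the hemoglobin genes Hba-a1 and Hba-a2 were at 0 in all libraries. In bulk samples, fewer cells of a type and less RNA per cell cannot be told apart.

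For each member, the genes with the most similar profiles were sought as the 2 highest Pearson correlations of log2 CPM over the 9 libraries. The search ran over the tested genes without predicted gene models, clone-named genes, pseudogenes, small RNA genes and receptor segments. Because the 9 points fall into the 3 groups, each r mainly describes the order of the group means. For Rgs2 they were Ifrd1 (r = 0.997), a transcriptional coregulator, at 106.6 CPM in ST2KO, 532 CPM in ST2-high and 361.9 CPM in ST2-low, and the dynactin subunit gene Dctn4 (0.997). The closest to Rgs1 was Etaa1 (0.987), and for Rgs16 they were the ribonuclease P subunit gene Pop4 (0.993) and Serinc1 (0.992). Rgs10 was closest to Fgfrl1 (0.995) and Nop56 (0.993), a component of small nucleolar ribonucleoproteins. Rgs14 was closest to Ifi203 (0.997) and Mndal (0.996), which belong to a family of related interferon-inducible genes whose reads may be shared between copies. Rgs3 was closest to Rspry1 (0.996) and Arhgap9 (0.995) and Rgs19 to Zfp120 (0.985) and Ggt5 (0.981).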

How the data were processed

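The deposited files hold whole-number counts per gene symbol, 1 file per library and not normalized, as their whole values and differing totals show and per the file headers. For the aligner, build, annotation, counting tool and strand setting the entry is: not given in the sources used here. Each file had 23420 rows, of which 27 with a symbol turned into a date (between 0.182% and 0.206% of a library's counts) were left out. Members and gene lists were chosen with earlier results of these data known.

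Counts were filtered with filterByExpr (minimum count 10, minimum total 15) and fitted with edgeR 4.0.16 (limma 3.58.1, R 4.3.3) by robust quasi-likelihood on all 9 libraries, 1 coefficient per group, after TMM scaling. The SE is the log2 fold change divided by the root of the F statistic. The fit was tested on simulated counts. Every pair of libraries within a group differed by more than sampling noise (chi-square), and each counted as 1 replicate. Libraries made from the same RNA may also differ in this way. The chi-square therefore cannot show that libraries came from separate animals. Intervals cover the spread between libraries.

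Named genes followed a rule: all 7 members, the other tested family members, in each list up to 3 genes per comparison taken by smallest adjusted p at 1 CPM or more in the higher group, from which the text takes examples, the 2 most similar genes per member, and Il1rl1 and Foxp3. Alternatives are given in the closing section, with DESeq2 1.42.0 among them. Exon lengths, coordinates and starts come from GENCODE M21 (GRCm38) and promoters from RefSeq (GRCm38.p6). The authors' build is not known, so coordinates describe the reference only. Some genes named by this rule are not reported here.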

Additional observations from a re-analysis of the deposited data

How the results depend on the processing

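In both ST2KO comparisons the 7 RGS genes kept their directions and calls with size factors from DESeq2 or upper quartiles, with DESeq2 or limma-voom as the test, without the filter or with 5 CPM as its limit, fitting 2 groups alone, leaving out Rn45s, thinning to the smallest library and leaving out each replicate. Calls were lost only when a minimum fold of 1.5 was the tested limit, which left 5 genes in ST2KO against ST2-low (without Rgs1 and Rgs19), 4 in ST2KO against ST2-high (without Rgs1, Rgs10 and Rgs19) and 0 in ST2-high against ST2-low. The same limit left 2111, 2378 and 347 of all genes. In ST2-high against ST2-low, 4 RGS genes passed with no filter (Rgs1 and Rgs14 added, edgeR adjusted p = 0.0219 and 0.0475), and between 2 and 4 when a replicate was left out. Leaving out a replicate gave 7 of 7 in both ST2KO comparisons throughout. Uncalled differences changed sign for Rgs16 (without ST2-high replicate 3) and Rgs19 (without ST2-low replicate 1), with log2 fold changes between -0.15 and 0.023 and between -0.0026 and 0.14 when replicates were left out; the cause was not tested. Of 357 alternative values of single genes, 342 kept call and direction. The filter of 5 CPM turned the balance of all calls in ST2-high against ST2-low to 1456 higher and 1666 lower, against 1872 and 1317. Upper-quartile scaling put the median of all genes at 0.12 on the log2 scale in ST2KO against ST2-low, against 0.05. Same-numbered libraries did not deviate together (correlation of deviations between -0.06 and 0.10), so the numbers were not taken as pairs, and the replicate block left 2, 7 and 7 RGS genes and 3210, 7622 and 7885 of all genes called.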
